A study of Mus musculus with 4 samples.

Results

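The p53 pathway was described through 32 genes: p53 itself (Trp53), its main inhibitors, and genes that p53 is known to switch on, grouped by role. They were found by gene symbol among the 45803 symbols of the deposited table, and all 32 were present. By role they were 3 core regulators, 9 genes of cell cycle arrest, 10 of apoptosis, 4 of DNA repair and nucleotide supply, and 6 of metabolism, autophagy or secretion. Of the 32, 29 reached 1 FPKM (fragments per kilobase of transcript, scaled to library size) in at least 2 of the 4 libraries and were tested among 13817 genes. Fas, Dram1 and Gdf15 did not reach that level, and only their values are given.

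The libraries were RNA sequencing libraries of epidermal keratinocytes, the epithelial cells of the outer skin, from mice at postnatal day 0. The cKO group (2 libraries) had the genotype K14Cre,Mettl14F/F, in which both alleles of Mettl14 are floxed. The control group (2 libraries) was K14Cre,Mettl14F/+, so the controls also carried the Cre transgene and 1 floxed allele beside a wild-type one. Mettl14 encodes a subunit of the enzyme that writes N6-methyladenosine on RNA. Cre was driven by the keratin 14 promoter, which is active in basal keratinocytes, so cells in the preparation that do not come from these would keep Mettl14. Each group has a library numbered 1 and a library numbered 2. Separate animals are not stated for the libraries of a group. The spread behind each p-value is that of these libraries alone, and it may be technical.

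p53 is a transcription factor that is made all the time and destroyed quickly, because the ubiquitin ligase MDM2 marks it for degradation and the related protein MDM4 masks its activation domain. DNA damage, failed ribosome assembly and other stresses release p53 from them, and it then binds paired decamer sites near genes that stop the cell cycle, repair DNA or start apoptosis. Mdm2 is itself such a gene, which closes a feedback loop. In epidermis the pathway is best known for the response of keratinocytes to ultraviolet light, where p21, the product of Cdkn1a, also takes part in leaving the cell cycle.

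RefSeq promoter windows (build GRCm38.p6, 250 bases before to 50 bases after an annotated start) were found for 25 of the 32 genes. They were searched for the p53 half-site, a consensus of 10 bases, without mismatch. The consensus reads the same on both strands. At least 1 half-site was present for 10 of the 25 genes (40.0%), against 2582 of 27025 genes with a window (9.6%). A full site, meaning adjoining half-sites with at most 1 base between them, at most 2 mismatches and the central C and G of each kept, was present for Cdkn1a, Ccng1 and Bax, which is 3 of 25 against 218 of 27025 (0.81%). The members are known p53 targets, so their share is a description of how they were picked. The windows below are those of the genes with a full site, and of Aen, which had the smallest p among the members. Each is read 5′ to 3′ on the gene's strand, with the full site in capitals, or the half-site in Aen. The windows are chr17:29090729-29091028 (+) for Cdkn1a, chr11:40755237-40755536 (-) for Ccng1, chr7:45466849-45467148 (-) for Bax and chr7:78895808-78896107 (+) for Aen.
Cdkn1a: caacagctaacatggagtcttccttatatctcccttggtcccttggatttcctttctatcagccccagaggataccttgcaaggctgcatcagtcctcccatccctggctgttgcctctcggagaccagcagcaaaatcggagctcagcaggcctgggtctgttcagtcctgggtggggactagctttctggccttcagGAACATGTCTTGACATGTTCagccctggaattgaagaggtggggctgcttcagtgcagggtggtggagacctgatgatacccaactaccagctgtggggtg
Ccng1: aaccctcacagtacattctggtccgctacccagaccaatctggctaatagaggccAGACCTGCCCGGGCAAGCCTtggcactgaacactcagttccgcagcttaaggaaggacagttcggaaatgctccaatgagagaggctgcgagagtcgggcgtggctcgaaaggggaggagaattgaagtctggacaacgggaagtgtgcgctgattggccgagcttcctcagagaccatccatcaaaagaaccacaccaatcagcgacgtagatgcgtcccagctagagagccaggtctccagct
Bax: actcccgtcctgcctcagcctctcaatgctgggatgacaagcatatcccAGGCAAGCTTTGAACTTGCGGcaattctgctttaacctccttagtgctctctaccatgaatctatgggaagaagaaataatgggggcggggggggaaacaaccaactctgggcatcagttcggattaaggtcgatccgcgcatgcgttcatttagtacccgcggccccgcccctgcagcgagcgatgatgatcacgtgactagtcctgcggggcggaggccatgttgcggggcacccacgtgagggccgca
Aen: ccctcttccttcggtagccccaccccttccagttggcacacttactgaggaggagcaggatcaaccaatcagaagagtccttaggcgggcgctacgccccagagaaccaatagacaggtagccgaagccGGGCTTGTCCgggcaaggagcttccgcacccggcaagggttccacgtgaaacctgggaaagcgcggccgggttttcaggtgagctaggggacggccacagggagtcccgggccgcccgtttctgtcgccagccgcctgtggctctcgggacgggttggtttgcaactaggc
The capitals begin 51 bases before the start in Cdkn1a, 195 in Ccng1, 201 in Bax and 121 in the Aen window shown. RefSeq has another Aen start upstream, near which the transcripts Aen-201 and Aen-203 begin (chr7:78895934 and chr7:78895927), and the same half-site lies 10 bases after it. The sites of Cdkn1a and Ccng1 have 1 mismatch each, and that of Bax has 2. A match is only a match of letters, and no binding was measured.

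The targeted gene was checked first. Mettl14 measured 5.89 and 3.79 FPKM in cKO libraries, against 7.00 and 6.40 FPKM in control libraries (log2 difference -0.42 ± 0.26 (SE), limma adjusted p = 0.959). Its main coding transcript, Mettl14-201, measured 2.21 and 2.63 FPKM in cKO libraries, against 4.82 and 5.15 FPKM in control libraries. Its other coding transcripts did not share this drop. Mettl14-202 measured 1.27 and 0.41 FPKM in cKO libraries, against 1.22 and 0.89 FPKM in control libraries. Mettl14-204 measured 0.91 and 0.33 FPKM, against 0.96 and 0.36 FPKM, and both overlapped between groups. Mettl14-203 measured 1.5 and 0.32 FPKM in cKO libraries and 0 in both control libraries. The implied depth was 16818552 to 25615212 reads or fragments per library, lower in both libraries numbered 1. Mitochondrial transcripts took 2.9% and 1.14% of the reads in cKO libraries and 4.08% and 1.62% in control libraries, so the numbers also differed in this share. Differences are therefore also given within each number. All 6 basal keratinocyte markers were lower in cKO within both numbers, with summed levels of 2377.0 and 3750.8 FPKM in cKO libraries and 3736.2 and 4840.6 FPKM in control libraries. Among differentiated keratinocyte markers Krt1 is listed at 0 in every library, and of the 7 tested 4 were higher and 3 lower in cKO. Their summed levels were 19845.8 and 12127.0 FPKM in cKO libraries and 23395.0 and 11733.9 FPKM in control libraries. The most abundant, Krt10, measured 12140 and 6217 FPKM in cKO libraries, against 15340 and 5382 FPKM in control libraries. Krtdap followed, at 4007 and 3616 FPKM in cKO libraries, against 3562 and 3584 FPKM in control libraries. Flg was lower within both numbers (-0.40). The 2 with the largest differences, picked out after their values were seen, were Tgm3, an enzyme that cross-links the cell envelope, and Sprr1b, one of its substrates. Tgm3 measured 111.5 and 123.5 FPKM in cKO libraries, against 49.89 and 47.89 FPKM in control libraries (1.25 ± 0.21, limma adjusted p = 0.959). Sprr1b measured 91.77 and 144.1 FPKM in cKO libraries, against 39.11 and 41.39 FPKM in control libraries (1.49 ± 0.28, limma adjusted p = 0.959). In both genes the groups were apart. All 6 leukocyte markers were lower in cKO within both numbers, with sums of 157.6 and 240.5 FPKM in cKO libraries and 280.1 and 338.1 FPKM in control libraries. The 6 fibroblast markers summed to 84.6 and 92.0 FPKM in cKO libraries and 116.1 and 113.8 FPKM in control libraries, the 5 melanocyte markers to 378.0 and 396.9 FPKM in cKO libraries and 485.9 and 418.9 FPKM in control libraries, and the 4 endothelial markers to at most 1.7 FPKM in any library. Fewer cells of a type and less RNA per cell cannot be told apart in such bulk libraries, and the part of these shifts in the results below was not tested.

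More members were higher than lower in cKO epidermal cells, but the differences were small and none passed the adjusted test. Of the 29 members tested, 20 had a positive log2 difference (cKO minus control) and 9 a negative one. The median member difference was 0.19 on the log2(FPKM + 1) scale, against -0.03 over all 13817 genes, and 69.0% of members were positive against 45.5% of all genes. The members were chosen with earlier results of these data known. These shares and those below describe that list and are not independent support. The median was 0.17 within number 1 and 0.26 within number 2. Without cKO replicate 2 the median was 0.09, and without control replicate 2 it was 0.11. None of the 29 members had an adjusted p under 0.05 in limma (Benjamini-Hochberg), where 0 of 13817 genes (0%) did, and limma-voom on reads recovered from the values called no member either. The labels do not say what the replicate numbers mark. With the number as a term in the same limma test, 7 members passed, 6 higher and 1 lower in cKO, against 6.51% of all genes (4.53% higher and 1.98% lower). At an unadjusted p under 0.05, 2 members were higher in cKO (Aen and Tigar) and 0 lower, against 3.29% of all genes higher and 1.68% lower.

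In 10 of the 29 members both cKO libraries lay above both control libraries, which is 34.5% against 16.2% of all genes tested. These 10 were Cdkn1a, Ccng1, Sfn, Plk2 and Zmat3 among the arrest genes, Aen, Tnfrsf10b, Ei24 and Phlda3 among the apoptosis genes, and Tigar. Both cKO libraries lay below both controls in 3 members, Gadd45a, Apaf1 and Ddb2, which is 10.3% against 16.6% of all genes. Within both numbers 19 members were higher in cKO (65.5% against 31.8% of all genes) and 8 were lower (27.6% against 37.6%). All these shares describe a list chosen with earlier results of these data known. With any 1 library left out, 13 to 17 members had all cKO values above the controls, where 24.0% to 39.6% of all genes did, and 5 to 7 had them below, where 31.3% to 38.2% did. The median of the members' log2 values, each centred on its own mean, was 0.04 and 0.17 in the cKO libraries and -0.12 and -0.09 in the control libraries, so cKO replicate 2 stood highest.

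**Figure D1:**
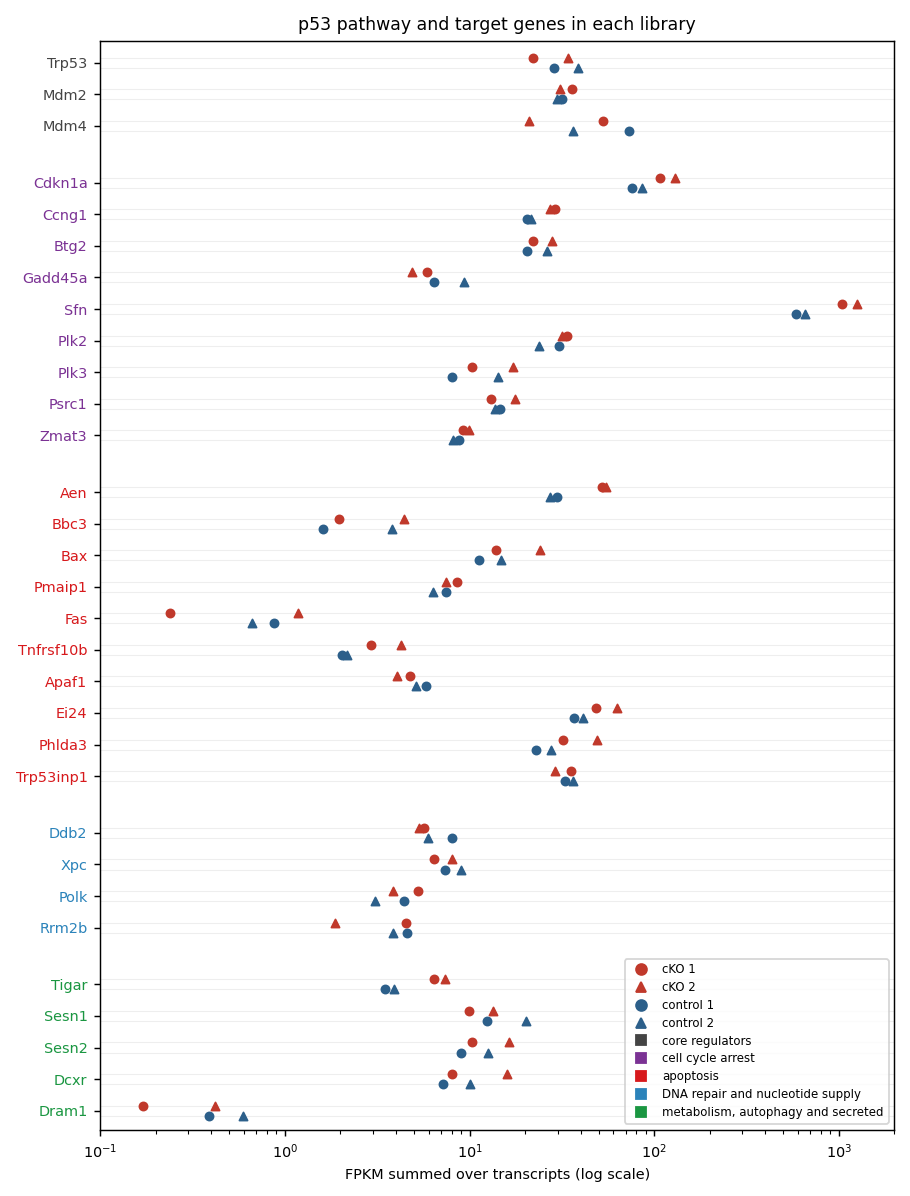
FPKM summed over transcripts (log scale) for the members by role except Gdf15, which is not drawn, with a point for each cKO and control library. Levels run from 0.17 for Dram1 to above 1000 for Sfn, both in cKO libraries, and for most genes the 4 points lie close together.

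**Figure D2:**
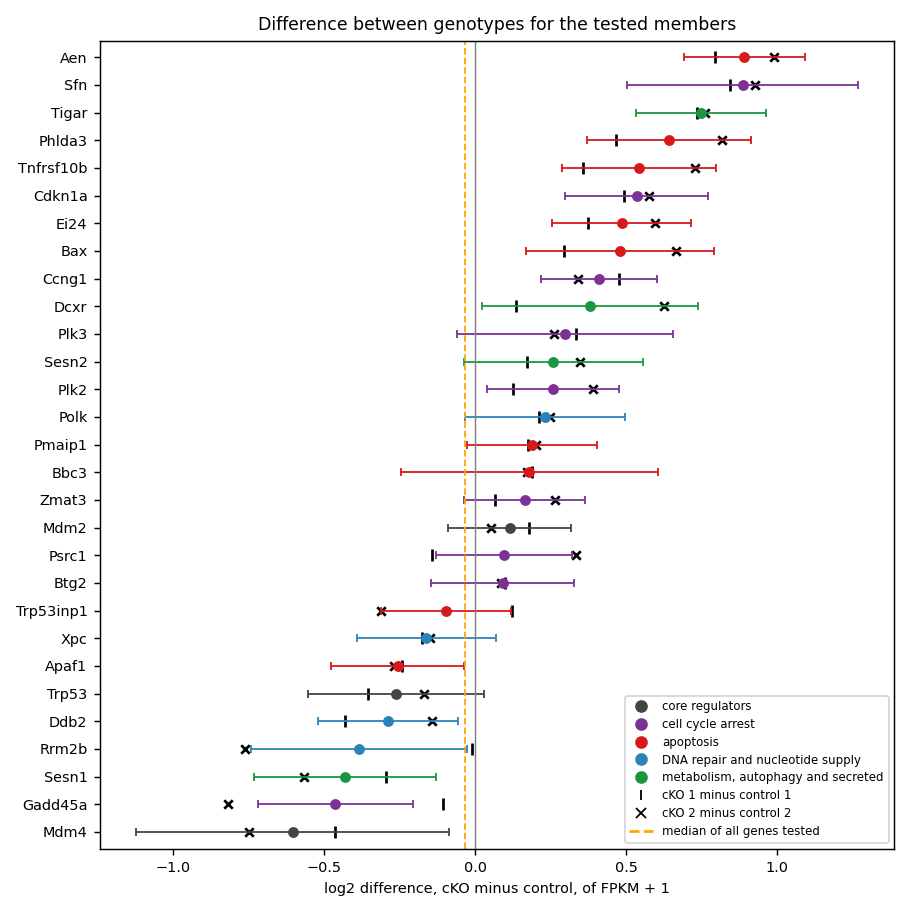
The log2 difference of FPKM + 1 (cKO minus control) for the 29 tested members, with bars for the standard error and marks for the difference within each replicate number. Aen (0.89) and Sfn (0.89) lie farthest to the right and Mdm4 (-0.60) farthest to the left.

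The core regulators did not share a direction. Trp53 (chr11:69580359-69591873, +, GRCm38) measured 22.16 and 34.25 FPKM in cKO libraries, against 28.61 and 38.65 FPKM in control libraries. Within each number the cKO library was the lower one, but the groups overlapped, and both libraries numbered 2 were above their partners numbered 1. The difference was -0.26 ± 0.29 (SE, n = 2 and 2, limma adjusted p = 0.959), and it turned to 0.04 without cKO replicate 1. The transcript Trp53-203 held 18.83 and 30.83 FPKM of this in cKO libraries, against 24.33 and 33.82 FPKM in control libraries.

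Mdm2 (chr10:117688875-117710758, -), the ligase and feedback target, measured 36.06 and 31.07 FPKM in cKO libraries, against 31.79 and 29.93 FPKM in control libraries. The groups overlapped, and the difference was 0.11 ± 0.20 (adjusted p = 0.964). About equal parts of its signal came from coding and other transcripts. The coding part was 18.70 and 17.22 FPKM in cKO libraries, against 14.48 and 14.99 FPKM in control libraries, and the groups did not overlap there. The remainder, mostly transcripts annotated with a retained intron, was 17.36 and 13.85 FPKM in cKO libraries, against 17.31 and 14.94 FPKM in control libraries. The coding transcript Mdm2-201 alone had a difference of 0.30 ± 0.23 (limma over transcripts, adjusted p = 1.0).

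Mdm4 (chr1:132959484-133030561, -), which holds p53 inactive without degrading it, measured 52.77 and 21.12 FPKM in cKO libraries, against 73.07 and 36.12 FPKM in control libraries. Both libraries numbered 1 were above both numbered 2, a gap larger than that between the genotypes, and within each number the cKO library was lower. The difference was -0.60 ± 0.52 (adjusted p = 0.959), with -0.46 within number 1 and -0.75 within number 2, and it was 0.04 without cKO replicate 2. Coding and other transcripts shared the pattern. The coding part was 24.02 and 10.36 FPKM in cKO libraries, against 34.66 and 18.87 FPKM in control libraries. Transcripts annotated with a retained intron took 4.01% and 2.28% of all FPKM in cKO libraries and 4.66% and 2.83% in control libraries, so their overall share was higher in both libraries numbered 1 and, within each number, lower in cKO.

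**Figure D3:**
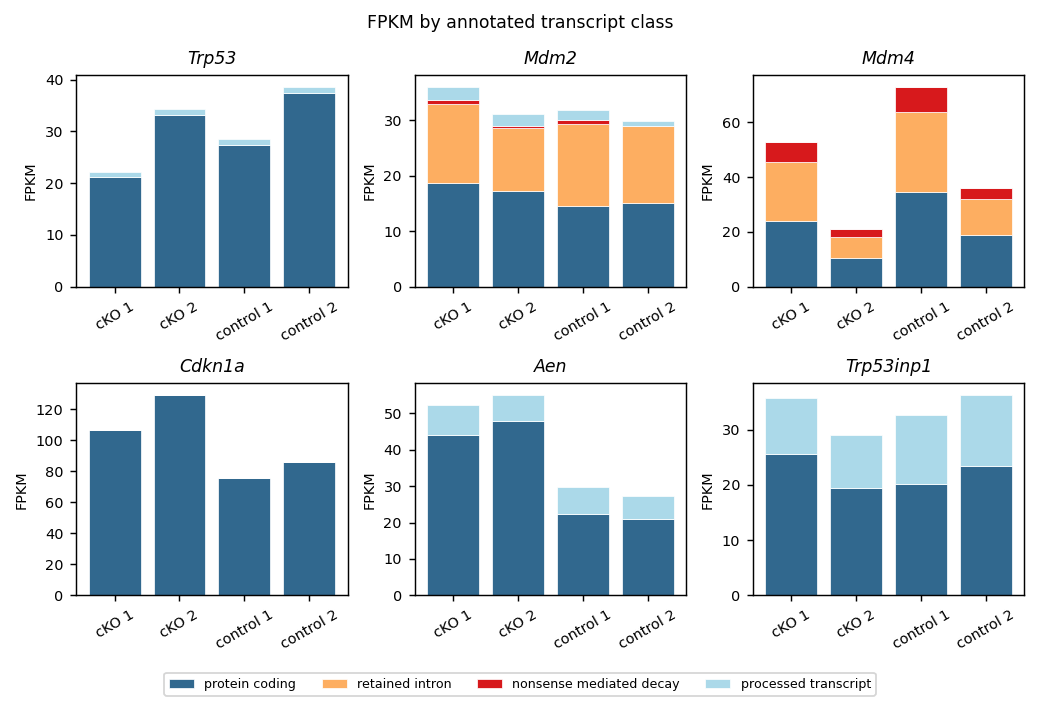
FPKM of Trp53, Mdm2, Mdm4, Cdkn1a, Aen and Trp53inp1 in the 4 libraries, stacked by the annotated class of their transcripts. The excess of Aen in cKO libraries lies in its coding part (44.03 and 47.88 FPKM in cKO libraries, against 22.32 and 21.03 FPKM in control libraries), while its non-coding part is alike in all 4.

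Among the 9 genes of cell cycle arrest 8 had a positive difference (88.9%, against 45.5% of all genes), with a median of 0.26. In 5 of them both cKO libraries lay above both controls (55.6%, against 16.2%). Cdkn1a (chr17:29090976-29100727, +) encodes p21, which inhibits cyclin-dependent kinases and is the classic arrest target of p53. It measured 107 and 129 FPKM in cKO libraries, against 75.74 and 86.24 FPKM in control libraries. Both cKO libraries were above both controls, the difference was 0.54 ± 0.24, and it was alike within number 1 (0.49) and number 2 (0.58), with an adjusted p of 0.959 in limma. The group means were 118 ± 15.7 FPKM in cKO and 81.0 ± 7.43 FPKM in control libraries (SD, n = 2 each).

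Nearly all of Cdkn1a was the transcript Cdkn1a-201, which measured 101.12 and 118.51 FPKM in cKO libraries, against 71.94 and 78.45 FPKM in control libraries. The minor coding transcript Cdkn1a-202 begins at chr17:29090979, the start whose window above holds the full p53 site, whereas Cdkn1a-201 begins downstream at 29093769, where the window held no half-site. Cdkn1a-202 measured 2.41 and 7.56 FPKM in cKO libraries, against 0 and 0.13 FPKM in control libraries, which came to about 37 and 179 reads in cKO libraries and 0 and 3 in control libraries. The cKO libraries were thus well above both controls, though they differed from each other by more than the control libraries did. Its difference on the log2(FPKM + 1) scale was 2.35 ± 0.50 (adjusted p = 0.923 over 27201 transcripts in limma, where 0 transcripts passed). Without cKO replicate 2 the difference was 1.68, and without cKO replicate 1 it was 3.01. Cdkn1a-202 reached 1 FPKM only in the cKO libraries, so it could be tested only because it was high there. Of 110295 transcripts, 9 had cKO values this high with control values this low, and 8 had the opposite arrangement. The cut-offs were the values of Cdkn1a-202 itself, which is among the 9, so these counts only describe it and are no support. This transcript was singled out after its values were seen, and how reads were shared between transcripts was not stated. The third transcript, Cdkn1a-203, measured 3.45 and 3.10 FPKM in cKO libraries, against 3.80 and 7.66 FPKM in control libraries.

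Sfn (chr4:133600556-133602168, -, a gene of 1 exon) encodes stratifin, which holds cell cycle kinases in the cytoplasm and is also abundant in differentiating keratinocytes. It was by far the most abundant member, with 1047 and 1252 FPKM in cKO libraries, against 583 and 659 FPKM in control libraries. Both cKO libraries were above both controls, and the gap was wider than that between libraries of a group. The difference was 0.89 ± 0.38 (limma adjusted p = 0.959), with 0.84 within number 1 and 0.93 within number 2. Because it is so abundant, Sfn carries most of the summed FPKM of all members, 1645.9 and 1918.4 in cKO libraries and 1109.9 and 1201.1 in control libraries, so that sum says little of the others. Tgm3 and Sprr1b, picked from a list of differentiation markers of mixed direction, were also higher in both cKO libraries, as given above. Their relation to Sfn was not tested.

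Ccng1 (chr11:40748552-40755311, -), whose product cyclin G1 brings a phosphatase to MDM2, measured 28.95 and 27.39 FPKM in cKO libraries, against 20.53 and 21.41 FPKM in control libraries. The libraries of each group lay close together and the groups did not overlap (0.41 ± 0.19, limma adjusted p = 0.959). Plk2, a polo-like kinase, measured 33.60 and 31.50 FPKM in cKO libraries, against 30.69 and 23.82 FPKM in control libraries. Zmat3, an RNA-binding zinc finger protein induced by p53, measured 9.27 and 9.91 FPKM in cKO libraries, against 8.82 and 8.09 FPKM in control libraries. For both genes the groups were apart by less than the spread within either group, with differences of 0.26 ± 0.22 and 0.16 ± 0.20. Inside Zmat3, the coding part was 7.81 and 9.08 FPKM in cKO libraries, against 6.09 and 6.66 FPKM in control libraries, while the retained-intron transcript Zmat3-204 was 1.46 and 0.83 FPKM in cKO libraries, against 2.73 and 1.43 FPKM in control libraries.

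Gadd45a (chr6:67035096-67037457, -), a stress sensor that blocks the entry into mitosis, was the only arrest gene with a negative difference. It measured 5.86 and 4.86 FPKM in cKO libraries, against 6.39 and 9.33 FPKM in control libraries. The gap lay mostly within number 2 (-0.82, against -0.11 within number 1), and the difference was -0.46 ± 0.26 (adjusted p = 0.959). Btg2, an antiproliferative cofactor, had a difference of 0.09 ± 0.24, Plk3, a polo-like kinase, of 0.30 ± 0.36, and Psrc1, a spindle protein, of 0.10 ± 0.23. In these 3 the groups overlapped, and single libraries decided the sign. Without cKO replicate 2 the values were -0.07 for Btg2, -0.04 for Plk3 and -0.11 for Psrc1, and without control replicate 1 they were -0.08 for Btg2 and -0.08 for Plk3. Psrc1 was also negative, at -0.11, when only its most abundant transcript was used.

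Of the 10 apoptosis genes 9 were tested, 7 of them with a positive difference (77.8%, against 45.5% of all genes), and the median was 0.48. In 4 of them both cKO libraries lay above both controls (44.4%, against 16.2%). Aen (chr7:78895854-78911209, +) encodes an apoptosis-enhancing nuclease that p53 induces. It measured 52.26 and 54.92 FPKM in cKO libraries, against 29.73 and 27.20 FPKM in control libraries. The libraries of each group lay within a few FPKM of each other and the gap between groups was far wider than that. The means were 53.6 ± 1.88 FPKM in cKO and 28.5 ± 1.79 FPKM in control libraries, with a ratio of 1.88. Its difference of 0.89 ± 0.20 had an adjusted p of 0.959 in limma, and was 0.79 within number 1 and 0.99 within number 2.

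The excess of Aen lay in its coding transcripts, which made up 84.3% and 87.2% of the gene in cKO libraries and 75.1% and 77.3% in control libraries. Non-coding transcripts measured 8.23 and 7.04 FPKM in cKO libraries, against 7.41 and 6.17 FPKM in control libraries. The main coding transcript Aen-201 measured 29.61 and 33.98 FPKM in cKO libraries, against 13.52 and 15.13 FPKM in control libraries (1.10 ± 0.24, limma adjusted p = 0.923 over transcripts). The processed transcript Aen-204 was 5.82 and 4.17 FPKM in cKO libraries, against 5.36 and 4.54 FPKM in control libraries. Within this gene the groups were therefore apart in the coding transcripts, and they overlapped in Aen-204.

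Phlda3 (chr1:135766119-135769136, +), which encodes an inhibitor of the survival kinase AKT, measured 32.05 and 49.22 FPKM in cKO libraries, against 22.94 and 27.51 FPKM in control libraries. Both cKO libraries were above both controls but differed from each other by more than the nearest ones of opposite groups (0.64 ± 0.27, and 0.34 without cKO replicate 2). Ei24 (chr9:36779159-36797393, -), an endoplasmic reticulum protein of stress and autophagy, measured 48.23 and 62.80 FPKM in cKO libraries, against 37.02 and 41.20 FPKM in control libraries (0.49 ± 0.23). Tnfrsf10b (chr14:69767472-69784411, +), the receptor for the death ligand TRAIL, measured 2.91 and 4.26 FPKM in cKO libraries, against 2.05 and 2.18 FPKM in control libraries (0.54 ± 0.26). In all 3 genes the groups were apart, cKO replicate 2 was the highest library, and the adjusted p was 0.959.

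Of the members in the BCL2 family, Bbc3 and Pmaip1 gave smaller differences, and Bax one near that of Ei24. Bax (chr7:45461697-45466898, -), the pore-forming effector, measured 13.96 and 24.04 FPKM in cKO libraries, against 11.19 and 14.80 FPKM in control libraries. Only cKO replicate 2 stood above both controls, so the groups overlapped (0.48 ± 0.31, adjusted p = 0.959). Without cKO replicate 2 the Bax difference was 0.11. Bbc3, which encodes the BH3-only killer protein PUMA, measured 1.96 and 4.39 FPKM in cKO libraries, against 1.6 and 3.78 FPKM in control libraries. The libraries numbered 2 were both higher, and the difference of 0.18 ± 0.43 turned to -0.25 without cKO replicate 2 and -0.26 without control replicate 1. Pmaip1, which encodes the BH3-only protein NOXA, measured 8.52 and 7.42 FPKM in cKO libraries, against 7.44 and 6.33 FPKM in control libraries (0.19 ± 0.22, adjusted p = 0.959). In Pmaip1 the groups overlapped, with cKO replicate 2 just under control replicate 1.

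Apaf1 (chr10:90989311-91082770, -), the scaffold of the apoptosome, measured 4.77 and 4.07 FPKM in cKO libraries, against 5.83 and 5.11 FPKM in control libraries. Both cKO libraries were below both controls, by less than the spread within either group (-0.26 ± 0.22). Its transcripts differed, with Apaf1-201 at 2.39 and 2.57 FPKM in cKO libraries, against 2.47 and 2.73 FPKM in control libraries, and Apaf1-202 at 1.17 and 1.11 FPKM in cKO libraries, against 2.44 and 1.93 FPKM in control libraries. The libraries of a group were near each other for both transcripts, and the larger gap was in Apaf1-202 (-0.57 ± 0.33, adjusted p = 1.0). Trp53inp1, a stress protein that takes part in autophagy and cell death, measured 35.66 and 28.98 FPKM in cKO libraries, against 32.69 and 36.22 FPKM in control libraries. The groups overlapped and the difference of -0.10 ± 0.22 was 0.05 without cKO replicate 2 and 0.03 over coding transcripts alone. Fas, the death receptor, measured 0.24 and 1.18 FPKM in cKO libraries, against 0.87 and 0.66 FPKM in control libraries, from 6 to 45 reads, and was not tested.

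Of the 4 repair genes 3 were lower in cKO, with a median of -0.23, and among the core regulators 2 of 3 were lower, with a median of -0.26. Positive differences made up 25.0% of the repair genes and 33.3% of the core regulators, against 45.5% of all genes. Ddb2 (chr2:91211572-91236982, -), which recognises ultraviolet damage in DNA, measured 5.70 and 5.32 FPKM in cKO libraries, against 8.03 and 5.98 FPKM in control libraries. Both cKO libraries were below both controls, but control replicate 2 lay close to them (-0.29 ± 0.23). Xpc, its partner in damage recognition, measured 6.40 and 8.05 FPKM in cKO libraries, against 7.36 and 9.03 FPKM in control libraries (-0.16 ± 0.23). Rrm2b, the p53-induced subunit of ribonucleotide reductase, measured 4.53 and 1.87 FPKM in cKO libraries, against 4.57 and 3.86 FPKM in control libraries. It was level within number 1 (-0.01) and lower within number 2 (-0.76), so its difference of -0.39 ± 0.36 rested on cKO replicate 2 and was 0.09 without it. Polk, a polymerase that copies past damaged bases, was higher within both numbers, with 5.27 and 3.86 FPKM in cKO libraries, against 4.41 and 3.09 FPKM in control libraries (0.23 ± 0.27). The adjusted p was 0.959 for all 4 repair genes.

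Tigar (chr6:127085116-127109557, -), a fructose bisphosphatase that slows glycolysis, stood apart among the metabolic targets. It measured 6.44 and 7.32 FPKM in cKO libraries, against 3.47 and 3.91 FPKM in control libraries. Each group was tight and the groups were far apart, with means of 6.88 ± 0.622 FPKM in cKO and 3.69 ± 0.311 FPKM in control libraries and a ratio of 1.86. The difference was 0.75 ± 0.22 (adjusted p = 0.959 in limma), with 0.74 within number 1 and 0.76 within number 2.

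The sestrins, which restrain the growth kinase mTORC1, had differences of opposite sign. Sesn1 measured 9.90 and 13.38 FPKM in cKO libraries, against 12.37 and 20.31 FPKM in control libraries (-0.43 ± 0.30). Sesn2 measured 10.30 and 16.34 FPKM in cKO libraries, against 9.04 and 12.62 FPKM in control libraries (0.26 ± 0.30). The groups overlapped in both, the libraries numbered 2 were the higher ones within each genotype, and single libraries decided the size or sign. Sesn1 was -0.10 without control replicate 2 and -0.77 without control replicate 1, and Sesn2 was -0.05 without cKO replicate 2. Dcxr, a carbonyl reductase, measured 8.02 and 16.03 FPKM in cKO libraries, against 7.22 and 10.04 FPKM in control libraries, and its difference of 0.38 ± 0.36 was -0.08 without cKO replicate 2. Dram1, a lysosomal regulator of autophagy, stayed under the filter with 0.17 and 0.42 FPKM in cKO libraries, against 0.39 and 0.59 FPKM in control libraries. Gdf15, a secreted stress cytokine, is listed at 0 in cKO replicate 1 and control replicate 1 and at 0.03 FPKM, about 1 read, in the other libraries, so no difference was detectable at this depth.

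**Figure D4:**
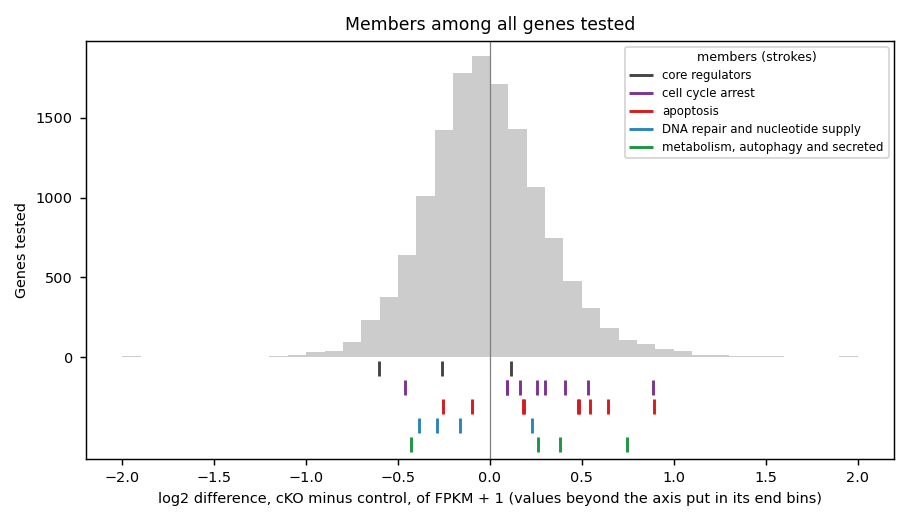
Histogram of the log2 difference (cKO minus control) of all 13817 genes tested, with a stroke for each of the 29 tested members coloured by role. The members' median is 0.19 against -0.03 for all genes, and their strokes run from -0.60 for Mdm4 to 0.89 for Aen.

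Across the members, genes with many exons had lower differences, as did all genes. The 9 members with up to 4 exons in their most abundant transcript had a median of 0.19 with 7 positive, the 8 with 5 to 9 exons 0.39 with 7 positive, and the 12 with 10 or more exons -0.02 with 6 positive. Over all tested genes whose main transcript is coding the medians were 0.12, 0.03 and -0.08 in the same classes, with 62.5%, 53.7% and 36.6% positive. Pearson's r between log2 exon number and difference was -0.45 over the 29 members (Spearman's rho -0.38) and -0.28 over 11705 genes (rho -0.28). These are descriptions across genes that share the same 4 libraries, and genes are not independent replicates. The part of exon number in the members' differences was not tested.

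**Figure D5:**
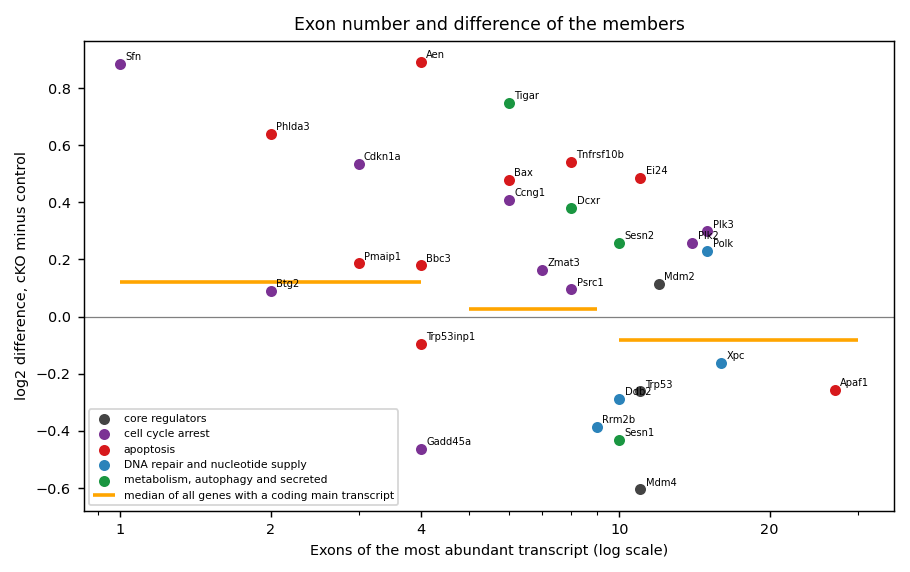
The log2 difference (cKO minus control) of each tested member against the exon number of its most abundant transcript (log scale), coloured by role, with orange lines for the median of all genes of each exon class. Sfn with 1 exon and Aen with 4 lie highest, and Mdm4 with 11 exons lies lowest.

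Having a half-site inside the promoter window searched did not sort the members by their difference. The 10 tested members with a half-site had a median of 0.32 with 7 positive, the 12 with a window but no half-site 0.26 with 10 positive, and the 7 without a window -0.10 with 3 positive. Sfn, Tigar and Phlda3, all with groups apart, had no half-site in the window, whereas Trp53, Gadd45a and Sesn1, all with negative differences, had one. Sequence outside the windows, such as introns or regions further upstream, was not searched. A member without a half-site in its window, or without a window, may therefore have one elsewhere. Whether p53 acts directly on any member was not tested by this split. For 8 of the 32 members (Cdkn1a, Gadd45a, Plk3, Bax, Ei24, Ddb2, Rrm2b and Tigar) an exon overlaps another annotated gene. That gene lies on the same strand for Bax, where reads of the overlapping part cannot be told apart. For the others it lies on the opposite strand. Whether reads of strands were kept apart is not stated, so the origin of reads there is not known.

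Genes around the pathway were read from lists of known members. Of 18 regulators upstream of p53, 16 were tested. A positive difference was found in 4 (25.0%, against 45.5% of all genes) and a negative one in 12 (median -0.16). Rchy1, a ubiquitin ligase of p53, measured 21.35 and 20.02 FPKM in cKO libraries, against 21.95 and 25.39 FPKM in control libraries (-0.18 on the log2 scale). Ep300, an acetyltransferase and coactivator, measured 24.31 and 20.12 FPKM in cKO libraries, against 25.23 and 24.54 FPKM in control libraries (-0.16). Rchy1 and Ep300 were named because their cKO libraries lay below both controls, as in 12.5% of the 16, against 16.6% of all genes. In 0 of the 16 they lay above both controls, against 16.2% of all genes. Both genes were slightly positive when only the most abundant transcript was used (0.08 for Rchy1 and 0.07 for Ep300). Cdkn2a, whose ARF product restrains MDM2, is listed at 0 in all 4 libraries.

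A further 30 p53 targets outside the 32 gave a flatter picture. Of the 28 tested, 15 were positive (53.6%, against 45.5% of all genes) and 13 negative, with a median of 0.07. In 10 both cKO libraries lay above both controls (35.7%, against 16.2% of all genes), and in 3 both lay below (10.7%, against 16.6%). This list too was chosen with earlier results of these data known. The death receptor gene Eda2r measured 1.54 and 2.10 FPKM in cKO libraries, against 0.49 and 0.75 FPKM in control libraries (0.80 ± 0.27). Kank3, which encodes an ankyrin repeat protein, measured 8.97 and 7.68 FPKM in cKO libraries, against 5.17 and 5.29 FPKM in control libraries (0.58 ± 0.21). The BH3-only gene Bid measured 7.24 and 7.07 FPKM in cKO libraries, against 4.35 and 4.72 FPKM in control libraries (0.56 ± 0.21). Ppm1d, whose phosphatase WIP1 shuts the p53 response down, measured 16.19 and 20.35 FPKM in cKO libraries, against 12.37 and 14.62 FPKM in control libraries (0.41 ± 0.22). In these 4 the groups were apart, and the adjusted p was 0.959 in limma for each. Eda2r, Kank3 and Bid had an unadjusted p under 0.05 in limma, as did 3.29% of all genes in this direction. Eda2r, which is among the 10 above, reached 1 FPKM only in the cKO libraries, so it could be tested only because it was high there.

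Among 15 cell cycle genes that p21 is known to lower, 5 were positive (33.3%, against 45.5% of all genes) and 10 negative, with a median of -0.24. The median was -0.64 within number 1 and 0.15 within number 2, so the libraries did not give a single direction. Top2a, a topoisomerase of dividing cells, measured 50.10 and 63.94 FPKM in cKO libraries, against 85.59 and 77.82 FPKM in control libraries (-0.52 ± 0.23). It was the only gene of the 15 with the groups apart (6.67% lower, against 16.6% of all genes). Cdk1, the mitotic kinase, measured 25.27 and 74.73 FPKM in cKO libraries, against 36.83 and 48.79 FPKM in control libraries. The cKO libraries were the lowest and the highest of the 4 for Cdk1, and its difference of 0.04 ± 0.50 was -0.02 with columns scaled to equal sums, -0.16 without control replicate 1 and -0.72 without cKO replicate 2.

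Of 14 other genes of the BCL2 family and the caspases, 8 were positive (57.1%, against 45.5% of all genes) and 6 negative (median 0.05). The survival gene Mcl1 measured 61.43 and 67.85 FPKM in cKO libraries, against 53.36 and 55.90 FPKM in control libraries. The initiator caspase gene Casp8 measured 25.81 and 24.17 FPKM in cKO libraries, against 23.54 and 21.56 FPKM in control libraries. The pro-apoptotic gene Bcl2l11 measured 3.59 and 4.0 FPKM in cKO libraries, against 5.14 and 5.24 FPKM in control libraries. These 3 were named because their groups were apart, with differences of 0.24 for Mcl1, 0.14 for Casp8 and -0.37 for Bcl2l11. In this list 2 genes had both cKO libraries above both controls (14.3%, against 16.2% of all genes). Only 1 had both below (7.14%, against 16.6%). Among 5 other inhibitors of cyclin-dependent kinases 2 were positive (40.0%, against 45.5% of all genes) and 3 negative. Cdkn1b measured 14.57 and 18.79 FPKM in cKO libraries, against 20.72 and 23.83 FPKM in control libraries (-0.40), the opposite direction from Cdkn1a, with the groups apart. Cdkn2c, at 5.05 and 16.70 FPKM in cKO libraries, against 11.83 and 14.23 FPKM in control libraries, overlapped, and its difference of -0.43 was 0.34 without cKO replicate 1.

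Of the p53 relatives, Trp63 is the regulator of basal keratinocytes, and its protein recognises similar sites. It measured 76.28 and 76.76 FPKM in cKO libraries, against 99.59 and 108.9 FPKM in control libraries. Both cKO libraries were below both controls (-0.44 ± 0.22, limma adjusted p = 0.959), beside the lower basal keratinocyte markers given above, among them Krt14 at 1435 and 2195 FPKM in cKO libraries, against 2176 and 2550 FPKM in control libraries. Trp73 measured 1.91 and 4.69 FPKM in cKO libraries, against 2.56 and 4.24 FPKM in control libraries, with overlapping groups (-0.09 ± 0.40). Without control replicate 2 the Trp73 difference was 0.19, and without cKO replicate 1 it was 0.40.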

How the data were processed

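RNA of 4 libraries was measured. The members and gene lists were chosen with earlier results of these data known, and all members are named. Context genes were named where the groups did not overlap (at most 4 a list, or the 2 most abundant), markers by abundance. Tgm3 and Sprr1b were exceptions, picked for their large differences after their values were seen. Flg, Krt1 and Cdkn2a were also named outside this rule.

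The authors deposited values per transcript for 110295 transcripts, taken here as FPKM from the values, since the file header names no unit; length-weighted sums came to 1015549.9 to 1021998.3. The submitters' processing notes list fastp, HISAT2, HTSeq and GRCm38; per the labels' protocols, total RNA went into NEBNext Ultra libraries, and poly(A) selection or ribosomal depletion and strand are not stated. The deposited columns call the control WT and were matched by replicate number. Low values were whole multiples of 1 read in 94.5% to 95.1% of cases (tolerance 0.2 reads), which gave the implied depths. GENCODE M21 held 98.04% of transcripts, and 162 symbols turned into dates were looked up by transcript ID.

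FPKM were summed per symbol. Genes with at least 1 FPKM in 2 libraries were tested on log2(FPKM + 1), where changes of low genes come out too small, by limma's moderated test (trend, genotype only), Benjamini-Hochberg adjusted over 13817 genes at 0.05; tables of transcripts were fitted likewise after the data were seen. The script was tested on simulated data. No shared litter or day is labelled, so the replicate number was a block only as an alternative. Others were scaling, pseudocount, filters, limma-voom on recovered reads, transcript choice and leaving out each library. Tests ran in limma 3.58.1 under R 4.3.3. Tables and plots were made in Python 3.11.15 with pandas 2.3.3, matplotlib 3.10.9 and numpy 2.4.6.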

Additional observations from a re-analysis of the deposited data

How the results depend on the processing

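The labels give both groups the numbers 1 and 2 without saying that they mark a pairing. Same-numbered libraries deviated together (r = 0.722 over 13817 genes, with only 2 pairs). With the replicate number as a block, limma called 900 genes (6.51%), against 0 without it, and 7 of the 29 members (24.1%). The adjusted p with the block was 0.00648 for Aen, 0.00876 for Sfn, 0.0265 for Phlda3, 0.0266 for Cdkn1a, 0.0303 for Tigar and 0.0457 for Ei24, all higher in cKO, and 0.0263 for Mdm4, lower in cKO. Outside the members it was 0.0434 for Eda2r and 0.0495 for Trp63. Eda2r reached the filter of 1 FPKM only through the cKO libraries.

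The member median of 0.19 was 0.28 with limma-voom on recovered reads and 0.26 with the most abundant or only the coding transcripts. Leaving out a library gave 0.088 to 0.256, 9 to 71 genes called and 0 members. Members with the cKO libraries all above the controls then numbered 13 to 17 (24.0% to 39.6% of all genes), and those below 5 to 7 (31.3% to 38.2%). Of 261 member differences recomputed with 4 libraries, 251 kept direction and side of the threshold, 7 passed it with the block and 3 changed sign: Psrc1 (-0.11) and Trp53inp1 (0.03) with the most abundant transcript, and Trp53inp1 (0.03) with coding transcripts. Rchy1 (0.082) and Ep300 (0.068) with the most abundant transcript, Cdk1 (-0.018) with equal column sums and Aen-204 (-0.002 at a pseudocount of 0.1) also changed sign.

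Leaving out a library changed the sign of Trp53 (-0.565 to 0.041), Mdm4 (-1.245 to 0.036), Btg2 (-0.079 to 0.262), Plk3 (-0.081 to 0.677), Psrc1 (-0.11 to 0.30), Bbc3 (-0.26 to 0.62), Trp53inp1 (-0.24 to 0.05), Rrm2b (-0.858 to 0.088), Sesn2 (-0.049 to 0.568), Dcxr (-0.079 to 0.838), Cdk1 (-0.72 to 0.80), Cdkn2c (-1.21 to 0.34), Trp73 (-0.57 to 0.40), and of the transcripts Trp53-203 (-0.58 to 0.10), Aen-204 (-0.20 to 0.20), Trp53inp1-201 (-0.16 to 0.22) and Apaf1-201 (-0.101 to 0.004). In these fits the spread of the lone library was taken from the other group. The cause of these shifts was not tested. Fas, Dram1 and Gdf15 had at most 45 reads in any library, which limits what could be seen of them.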
